A study of Caenorhabditis elegans with 8 samples.

Results

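The genome of Caenorhabditis elegans holds an unusually large set of genes for serpentine chemoreceptors, the 7-transmembrane receptors with which sensory neurons detect odours, tastes and pheromones. They are named by class (sra to srz and str), and most are thought to act in a few pairs of amphid neurons. There they couple to G proteins and, in some of these neurons, through cyclic GMP to the TAX-2/TAX-4 channel. Dauer entry and exit are themselves controlled by amphid neurons that sense ascaroside pheromones, food and temperature. In the processed tables, 1628 genes carried a name of 1 of the 22 serpentine classes. The 63 genes described here (3.87% of them) were chosen by their measured level, as those whose FPKM (fragments counted per kilobase of a transcript and scaled to the mapped fragments of each library) averaged at least 1 over the 8 libraries. The other 1565 genes averaged less, and 168 of these were listed at 0 in every library.

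The libraries were made from polyadenylated RNA of whole hermaphrodites, with 2 libraries in each of 4 groups. Animals labelled daf-2; aak(0); hzl-1, called hzl-1 aak(0) below, were sequenced as post-dauers and as dauers, and so were animals labelled daf-2; hzl-1, called hzl-1 daf-2 below. By their labels all 4 groups thus carry mutations in hzl-1 and in daf-2, which encodes the insulin/IGF receptor and whose loss drives dauer arrest, and aak(0) stands for the added loss of aak-1 and aak-2, the genes for both catalytic subunits of AMP-activated kinase. Dauers, an arrested and stress-resistant larval stage, were collected at 96 h of growth at 25 °C and post-dauers, animals that have left the arrest, at 192 h, while the series description places the post-dauer collection 96 h after a shift to the permissive temperature. The alleles are not given in the sources used here, so how much daf-2 or hzl-1 function a group had at its collection is not known from them. The labels do not say that the libraries of a group came from separate cultures, so p-values may measure technical spread.

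Recovered reads per library ran from 13.99 M (hzl-1 daf-2 dauer library 1) to 26.98 M (hzl-1 aak(0) post-dauer library 2). The per-gene FPKM did not show the loss of the AMPK genes. For aak-1 it was 7.16 and 7.72 in hzl-1 aak(0) post-dauers, 14.7 and 9.99 in hzl-1 aak(0) dauers, 8.75 and 8.59 in hzl-1 daf-2 post-dauers, and 3.10 and 3.19 in hzl-1 daf-2 dauers. For aak-2 it was 9.85 and 9.40, 37.9 and 49.2, 20.2 and 18.4, and 35.6 and 43.6 FPKM in the same groups in the same order. A per-gene value does not test a deletion of part of a gene, and no gene was listed under the name hzl-1. The libraries are therefore called by their labels.

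Few of the 63 genes were abundant. The median of their mean levels was 1.60 FPKM and 38 of them averaged under 2. Only 5 averaged 5 or more, and all 5 of these averaged at least 10, namely srr-4 (30.6), str-176 (24.8), sri-40 (21.3), srw-86 (20.7) and srv-1 (14.8), followed by srsx-34 at 4.74 FPKM. Counting precision was correspondingly low, with a median of 24 reads per gene and library and a median of 247 reads per gene over the 8 libraries. The gene srt-37 had 8 reads in all libraries together, although its FPKM averaged 1.08, and the next lowest gene had 69. The threshold itself separated similar genes, with srd-28 (1.01), srt-13 (1.00) and srh-237 (1.00) just inside and srv-15 (0.996), str-88 (0.990) and srab-18 (0.970 FPKM) just outside.

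Membership rested largely on 1 condition. For 36 of the 63 genes the mean over the other libraries was under 1 FPKM once the group with the highest level was left out, and 22 fell under the threshold when a single library was left out. Conversely, 161 genes under the threshold reached 1 FPKM in at least 1 library and 116 did so as a mean of a group. The highest group was hzl-1 aak(0) post-dauers for 6 genes, hzl-1 aak(0) dauers for 16, hzl-1 daf-2 post-dauers for 5 and hzl-1 daf-2 dauers for 36. A gene that passed through the group in which it was high had to differ between groups, so counts over the 63 genes describe them and support nothing about the receptor families. For these 36 genes, p-values given below for comparisons with their highest group draw on the values that admitted them.

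**Figure D1:**
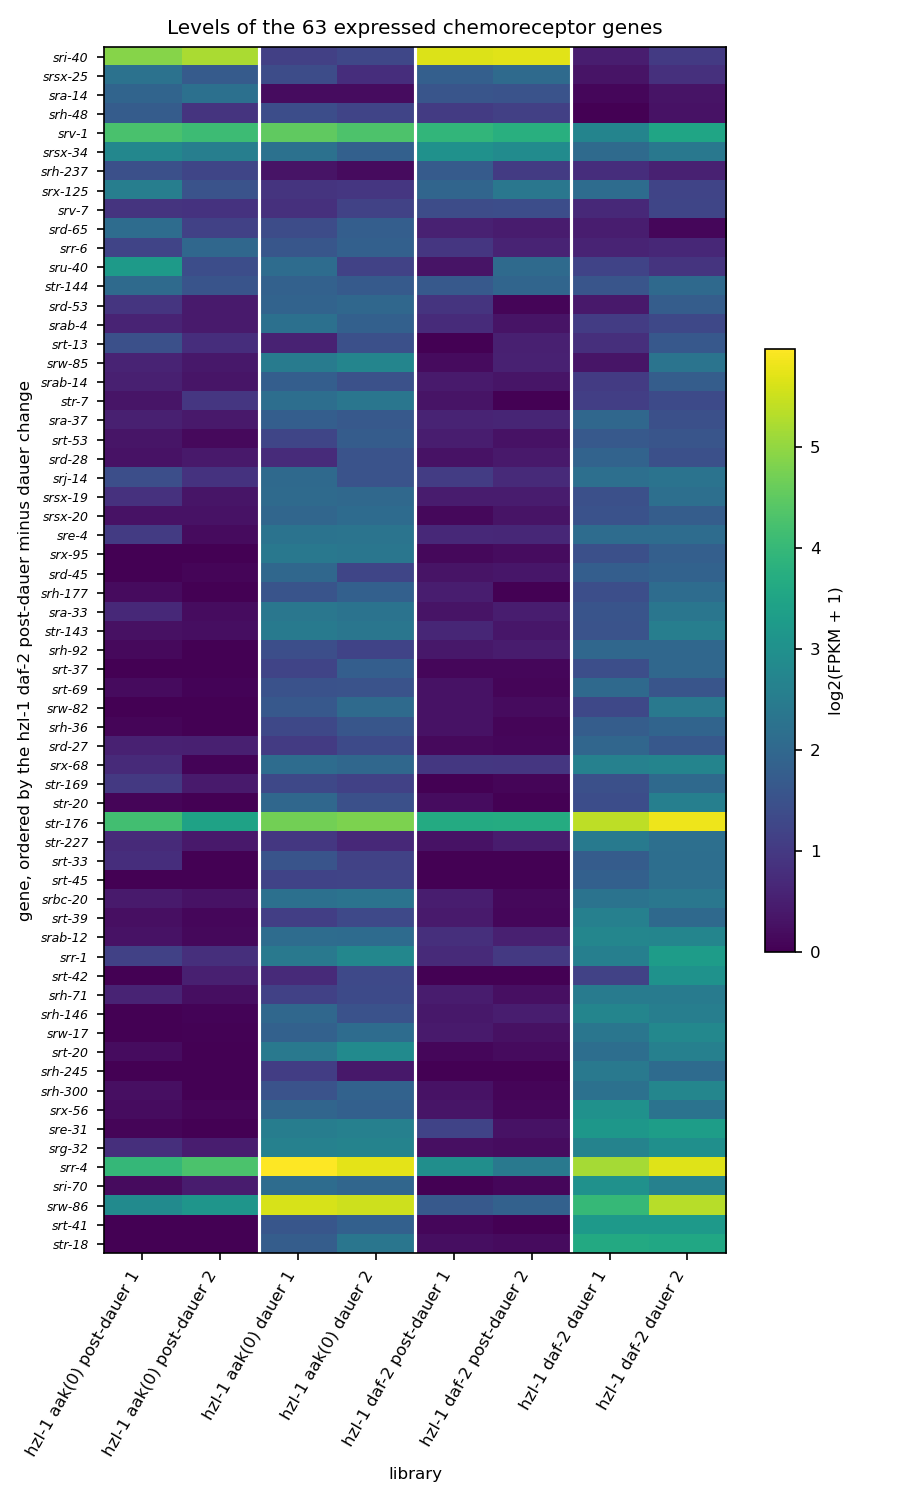
Level of each of the 63 genes (rows) in each of the 8 libraries (columns) as log2(FPKM + 1), ordered by the post-dauer minus dauer change in hzl-1 daf-2. Most rows are brighter in the 4 dauer libraries, the row of sri-40 at the top is brighter in the 4 post-dauer libraries, and the rows of srv-1, str-176 and srr-4 are bright in all 8.

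By class, the srt genes gave the most members, 10 of 74 (13.5%), followed by srh (9 of 292), str (8 of 225) and srd (5 of 75). The small srr class had the highest share, 3 of 10 genes (30%), against 3.08% for srh. Among the larger classes srz, with 105 genes and 41 annotated pseudogenes, had no member, and srb, srm, srn and srxa had none either. In the usual grouping into superfamilies, Str (srd, srh, sri, srj, srm, srn and str) held 25 of 722 genes, Srg (srg, srt, sru, srv, srx and srxa) 18 of 381, and Sra (sra, srab, srb and sre) 8 of 141. The classes outside these groups held 12 of 384, among them srw, whose proteins resemble peptide receptors more than odorant receptors. Pseudogenes made up 315 of the 1628 genes, and srsx-20 was the only 1 of the 63 annotated as such, beside 54 annotated as protein-coding alone and 8 as both protein-coding and non-coding RNA.

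Chromosome V carried 45 of the 63 genes (71.4%), close to its share of all named serpentine genes, 1113 of 1628 (68.4%). Chromosome II carried 8, chromosome IV 4, chromosome X 3, chromosome III 2 and chromosome I 1. On chromosome V, 6 pairs of members lay within 9695 nt of each other, counting gene starts and ends as listed on build WBcel235. Whether genes outside the 63 lie between them was not checked. These were str-143 and str-144 (905 nt apart), srt-20 and srt-37 (1156 nt), srj-14 and srx-56 (2258 nt), srr-6 and srr-4 (4164 nt), srt-41 and srt-42 (4306 nt), and srsx-20 and srsx-34 (9695 nt). The genes of such a pair were not always at like levels or alike in their changes, as described below for str-143 and str-144 and for srr-4 and srr-6.

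The exons of 17 members overlapped another gene in the annotation, 12 of them by at least 25 nt, and whether reads were counted by strand is not stated, so reads of such neighbours cannot be told apart. The longest overlaps were those of srh-48 with a pseudogene on the opposite strand (586 nt), srab-14 with spi-1 (490 nt), sre-4 with T13F2.6 (249 nt), srt-41 with F36H9.10 (170 nt), and srsx-25 with agt-1 (160 nt). No exon overlap was annotated for srr-4, str-176, sri-40 or srw-86. Serpentine genes also have near-identical relatives, and how reads shared between such copies were divided is not stated in the sources used here beyond the use of RSEM, so the levels of close relatives are uncertain.

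The summed FPKM of the 63 genes was 141.5 and 121 in hzl-1 aak(0) post-dauers, 299 and 289 in hzl-1 aak(0) dauers, 123 and 120 in hzl-1 daf-2 post-dauers, and 269 and 364 in hzl-1 daf-2 dauers. All 4 dauer libraries were above all 4 post-dauer libraries. Leaving aside the 5 most abundant genes, the other 58 summed to 56.5 and 32.8, 141 and 145, 38.2 and 37.4, and 172 and 207 FPKM in the same groups in the same order. A list of 19 pan-neuronal genes, of synaptic release (rab-3, unc-64), neuropeptide processing (egl-3, egl-21, sbt-1) and dense-core vesicles (ida-1), summed to 589 and 551 FPKM in hzl-1 aak(0) post-dauers, 1853 and 2192 in hzl-1 aak(0) dauers, 460 and 411 in hzl-1 daf-2 post-dauers, and 2585 and 2852 in hzl-1 daf-2 dauers. Relative to this neuronal sum, the 58 genes stood at 5.96% to 9.58% in the 4 post-dauer libraries and at 6.62% to 7.60% in the 4 dauer libraries, ranges that overlap. That overlap depended on which neuronal genes were summed. The 4 genes egl-3, egl-21, sbt-1 and ida-1 made up 24.3% to 36.2% of the neuronal sum in post-dauer libraries and 63.8% to 74.7% in dauer libraries. Without them, a choice made after their values were seen, the 58 genes stood at 7.98% to 13% of the other 15 in post-dauer libraries and at 20.1% to 26.2% in dauer libraries, with no overlap. Without snb-1 as well, the synaptobrevin gene and the most abundant of those left, the shares were 25.7% to 32.5% in post-dauer libraries and 34.1% to 42.3% in dauer libraries, again with no overlap. Relative to all 19, the 63 genes together stood at 22% to 29.3% in post-dauer libraries and at 10.4% to 16.1% in dauer libraries. In whole animals, fewer neurons per unit of RNA and less receptor RNA per neuron cannot be told apart.

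**Figure D2:**
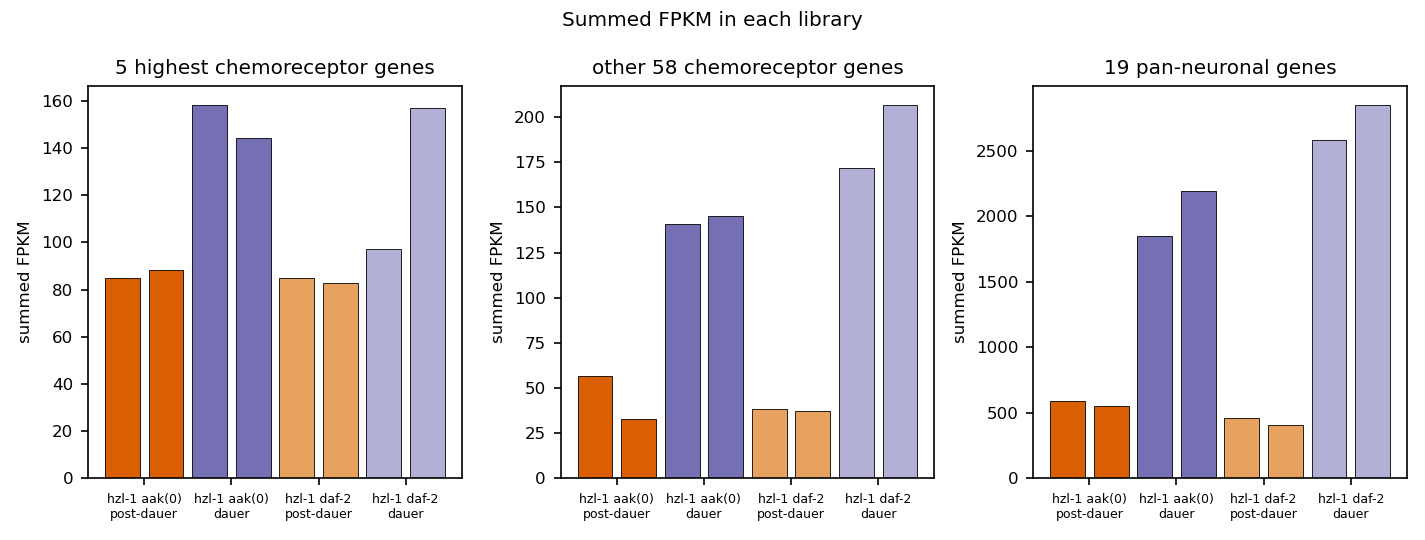
Summed FPKM in each library, with 1 bar per library and bars starting at 0, for the 5 highest chemoreceptor genes, the other 58, and 19 pan-neuronal genes. The 58 genes and the pan-neuronal genes are lower in all 4 post-dauer libraries (at most 56.5 and 589 FPKM) than in all 4 dauer libraries (at least 141 and 1853 FPKM), while for the 5 highest genes hzl-1 daf-2 dauer library 1 (97.02) is close to the post-dauer libraries.

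Between stages, most of the 63 genes had lower RNA levels in post-dauers than in dauers in both genotypes. A gene is called here when limma gives an adjusted p (Benjamini-Hochberg over the 15365 genes tested) under 0.05 for its difference in log2(FPKM + 1). In hzl-1 aak(0), 41 of the 63 genes were called lower in post-dauers, where 27% of all genes tested were called lower, and 3 were called higher, against 25.9% of all genes. In hzl-1 daf-2, 46 were called lower (27.8% of all genes) and 5 higher (39.4% of all genes). Both genotypes had 39 genes (61.9%) called lower, against 21.6% of all genes, and 2 genes called higher, against 23.3% of all genes. No gene was called in opposite directions, against 0.384% of all genes. The median change of the 63 genes was -1.40 in hzl-1 aak(0) and -1.58 in hzl-1 daf-2 on the log2(FPKM + 1) scale, beside 0.02 and 0.34 for all genes tested. The 2 libraries of each group did not overlap, with post-dauers lower, for 49 genes in hzl-1 aak(0) (38.5% of all genes) and 48 in hzl-1 daf-2 (35.1% of all genes).

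On recovered reads, edgeR's quasi-likelihood test could be run on 61 of the genes and called 43 lower and 4 higher in hzl-1 aak(0) post-dauers, where it called 29.9% and 25% of all its genes. In hzl-1 daf-2 post-dauers it called 48 lower and 3 higher, where it called 35.4% and 33.1% of all its genes. The authors' deposited table of their own test had an adjusted p for 62 of the genes, of which 4 were higher in post-dauers and 41 higher in dauers in hzl-1 aak(0), and 3 and 45 in hzl-1 daf-2. The shares of all genes called in the authors' test were not counted, so these counts have no background beside them. In the fit with no FPKM filter, 1397 serpentine genes under the FPKM threshold could be tested. In hzl-1 aak(0) post-dauers 246 of them (17.6%) were called lower and 8 (0.573%) higher, beside 21.9% and 19.4% of all genes in that fit. In hzl-1 daf-2 post-dauers 330 (23.6%) were called lower and 13 (0.931%) higher, beside 22.6% and 28.4% of all genes. The shares called lower were thus below or near those of all genes, and few of these genes were called higher. The log2(FPKM + 1) scale understates changes of such low genes, so these shares do not show that their levels held. In both genotypes more of them changed below 0 than above 0 (1052 against 266 in hzl-1 aak(0)). The summed FPKM of all 1565 averaged 82.1 in hzl-1 aak(0) post-dauers and 317 in hzl-1 aak(0) dauers. It averaged 65.6 in hzl-1 daf-2 post-dauers and 364 in hzl-1 daf-2 dauers.

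**Figure D3:**
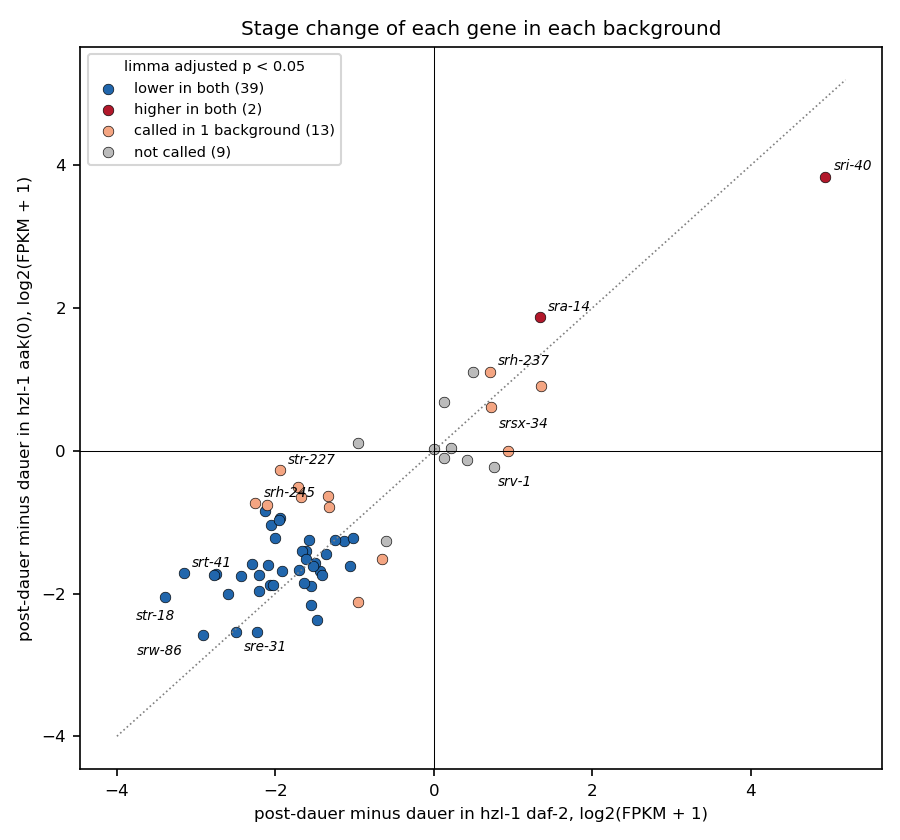
Post-dauer minus dauer change of each of the 63 genes on the log2(FPKM + 1) scale in hzl-1 aak(0) (vertical) and hzl-1 daf-2 (horizontal), coloured by whether limma called it in both genotypes, in 1 or in neither, with a dotted line of equal change. The 39 genes called lower in both lie in the lower left, sri-40 (3.84 and 4.95) lies alone at the upper right, and str-227 (-0.27 and -1.94) is far from the line.

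Against that direction stood sri-40, a gene of the Str superfamily on chromosome II (3177963 to 3180476), whose RNA was far more abundant in post-dauers. Its FPKM was 28.6 and 35.97 in hzl-1 aak(0) post-dauers and 1.21 and 1.41 in hzl-1 aak(0) dauers, and 49.9 and 51.6 in hzl-1 daf-2 post-dauers and 0.40 and 1.01 in hzl-1 daf-2 dauers. All 4 post-dauer libraries were above all 4 dauer libraries, by more than the spread in any group. The mean was 24.7-fold higher in post-dauers in hzl-1 aak(0) (log2 change 3.84 ± 0.25 SE, limma adjusted p = 0.000134) and 72.0-fold higher in hzl-1 daf-2 (4.95 ± 0.25 SE, limma adjusted p = 1.84e-05). It had 624 and 1055 reads in hzl-1 aak(0) post-dauers and 836 and 1013 in hzl-1 daf-2 post-dauers, so counting error is small there. The direction and the call held under every alternative run.

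The other gene called higher in both genotypes was sra-14, of the Sra superfamily, at a lower level. It passed the FPKM threshold only through hzl-1 aak(0) post-dauers, so its change in hzl-1 aak(0) draws on the values that admitted it. Its FPKM was 2.79 and 3.62 in hzl-1 aak(0) post-dauers and 0.15 and 0.14 in hzl-1 aak(0) dauers, and 1.98 and 1.90 in hzl-1 daf-2 post-dauers and 0.08 and 0.25 in hzl-1 daf-2 dauers. Post-dauers were again above dauers in every library, with a log2 change of 1.87 ± 0.22 SE (limma adjusted p = 0.000822) in hzl-1 aak(0) and 1.34 ± 0.22 SE (limma adjusted p = 0.00176) in hzl-1 daf-2.

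Another 4 genes were called higher in post-dauers of 1 genotype, and for none of them was the stage change called different between genotypes. In hzl-1 aak(0) this was srh-237, with 1.73 and 1.39 FPKM in post-dauers and 0.25 and 0.12 in dauers (log2 change 1.11 ± 0.28 SE, limma adjusted p = 0.0157). The call was lost without either hzl-1 aak(0) dauer library (adjusted p up to 0.0818). In hzl-1 daf-2 they were srsx-25 (2.51 and 3.18 FPKM in post-dauers, 0.25 and 0.78 in dauers), srh-48 (1.04 and 1.19, against 0 and 0.22) and srsx-34 (7.09 and 6.35, against 3.18 and 4.25). Groups did not overlap for any of these 3 genes, and the limma adjusted p was 0.0103, 0.0373 and 0.0415 in that order. On recovered reads edgeR did not call srsx-25 (adjusted p = 0.0841) or srsx-34 (adjusted p = 0.0965) in hzl-1 daf-2, and called srh-48 (adjusted p = 0.00656). In hzl-1 aak(0), srsx-34 had 5.86 and 4.84 FPKM in post-dauers and 3.73 and 2.59 in dauers, without overlap. There limma did not call it (adjusted p = 0.081), while edgeR called it higher (adjusted p = 0.018). When single libraries were left out, the limma call was lost for srsx-25 without hzl-1 daf-2 post-dauer library 2 (adjusted p = 0.0613). It was lost for srsx-34 without 5 of the libraries (up to 0.16) and for srh-48 without any 1 of the 4 dauer libraries or either hzl-1 daf-2 post-dauer library (up to 0.131). The srh-48 exons share 586 nt with a pseudogene that itself was at 3.41 and 5.10 FPKM in hzl-1 aak(0) post-dauers, 2.24 and 1.45 in hzl-1 aak(0) dauers, 3.55 and 4.46 in hzl-1 daf-2 post-dauers, and 0 in both hzl-1 daf-2 dauer libraries. The part of these shared exons in the srh-48 result was not tested. The same limit applies to srsx-25, since agt-1 on the opposite strand was at 32.8 to 63.7 FPKM over the 8 libraries.

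Among the genes called lower in post-dauers, srr-4 on chromosome V (5019224 to 5022369), of a small class outside the superfamilies, was the most abundant of all 63. Its FPKM was 14.8 and 18.5 in hzl-1 aak(0) post-dauers, against 62.1 and 52.5 in hzl-1 aak(0) dauers. In hzl-1 daf-2 it was 6.75 and 4.36 in post-dauers, against 35.4 and 50.8 in dauers. Post-dauers were below dauers without overlap in both genotypes, by 3.44-fold (log2 change -1.73 ± 0.27 SE, limma adjusted p = 0.00241) and by 7.75-fold (-2.75 ± 0.27 SE, limma adjusted p = 0.000197). Its neighbour srr-6, whose listed end is 4164 nt away, was not called between stages. It had 1.33 and 3.01 FPKM in hzl-1 aak(0) post-dauers and 2.01 and 2.54 in hzl-1 aak(0) dauers, and 0.92 and 0.51 in hzl-1 daf-2 post-dauers and 0.52 and 0.58 in hzl-1 daf-2 dauers, with overlapping stages in both genotypes. The third member of the class, srr-1, had 1.23 and 0.76, 4.35 and 5.77, 0.63 and 0.99, and 4.97 and 8.86 FPKM in the same group order. It fell by 1.60 ± 0.32 SE (limma adjusted p = 0.00628, and 0.0507 without hzl-1 aak(0) dauer library 2) and by 2.09 ± 0.32 SE (limma adjusted p = 0.0013) on the log2 scale.

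The srw class gave srw-86, on chromosome V (19400142 to 19400715). Its FPKM was 6.30 and 7.70 in hzl-1 aak(0) post-dauers and 48.2 and 44.8 in hzl-1 aak(0) dauers, and 2.18 and 2.60 in hzl-1 daf-2 post-dauers and 15.1 and 39.1 in hzl-1 daf-2 dauers. The groups did not overlap, although the 2 hzl-1 daf-2 dauer libraries differed widely. The log2 change was -2.57 ± 0.41 SE (limma adjusted p = 0.00247) in hzl-1 aak(0) and -2.91 ± 0.41 SE (limma adjusted p = 0.000864) in hzl-1 daf-2. The nearby name srw-85 had 0.50 and 0.31 FPKM in hzl-1 aak(0) post-dauers, against 4.57 and 5.6 in hzl-1 aak(0) dauers (log2 change -2.11 ± 0.58 SE, limma adjusted p = 0.0214). It passed the FPKM threshold only through those dauers, so this change draws on the values that admitted it. It was not called in hzl-1 daf-2, where post-dauers had 0.13 and 0.46 and dauers 0.27 and 3.91 FPKM, so that library 2 alone was high. Its call in hzl-1 aak(0) was lost when any 1 of the 4 libraries compared was left out (adjusted p up to 0.105). The remaining srw members, srw-17 and srw-82, were called lower in both genotypes.

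For str-176, on chromosome IV (8460999 to 8463816) and the second most abundant gene, the stage change was smaller. FPKM was 17.1 and 9.88 in hzl-1 aak(0) post-dauers and 25.1 and 26.7 in hzl-1 aak(0) dauers, and 11.6 and 11.8 in hzl-1 daf-2 post-dauers and 40.7 and 55.7 in hzl-1 daf-2 dauers. Post-dauers were lower without overlap in both genotypes, 1.92-fold in hzl-1 aak(0) (log2 change -0.94 ± 0.28 SE, limma adjusted p = 0.0283) and 4.12-fold in hzl-1 daf-2 (-1.94 ± 0.28 SE, limma adjusted p = 0.000972). The first of these calls was lost without either hzl-1 aak(0) dauer library, hzl-1 aak(0) post-dauer library 2, or either hzl-1 daf-2 post-dauer library, with adjusted p up to 0.132. The difference between the genotypes' stage changes was not called by limma (1.00 ± 0.40 SE, adjusted p = 0.148) and was called by edgeR (1.43, adjusted p = 0.0199).

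**Figure D4:**
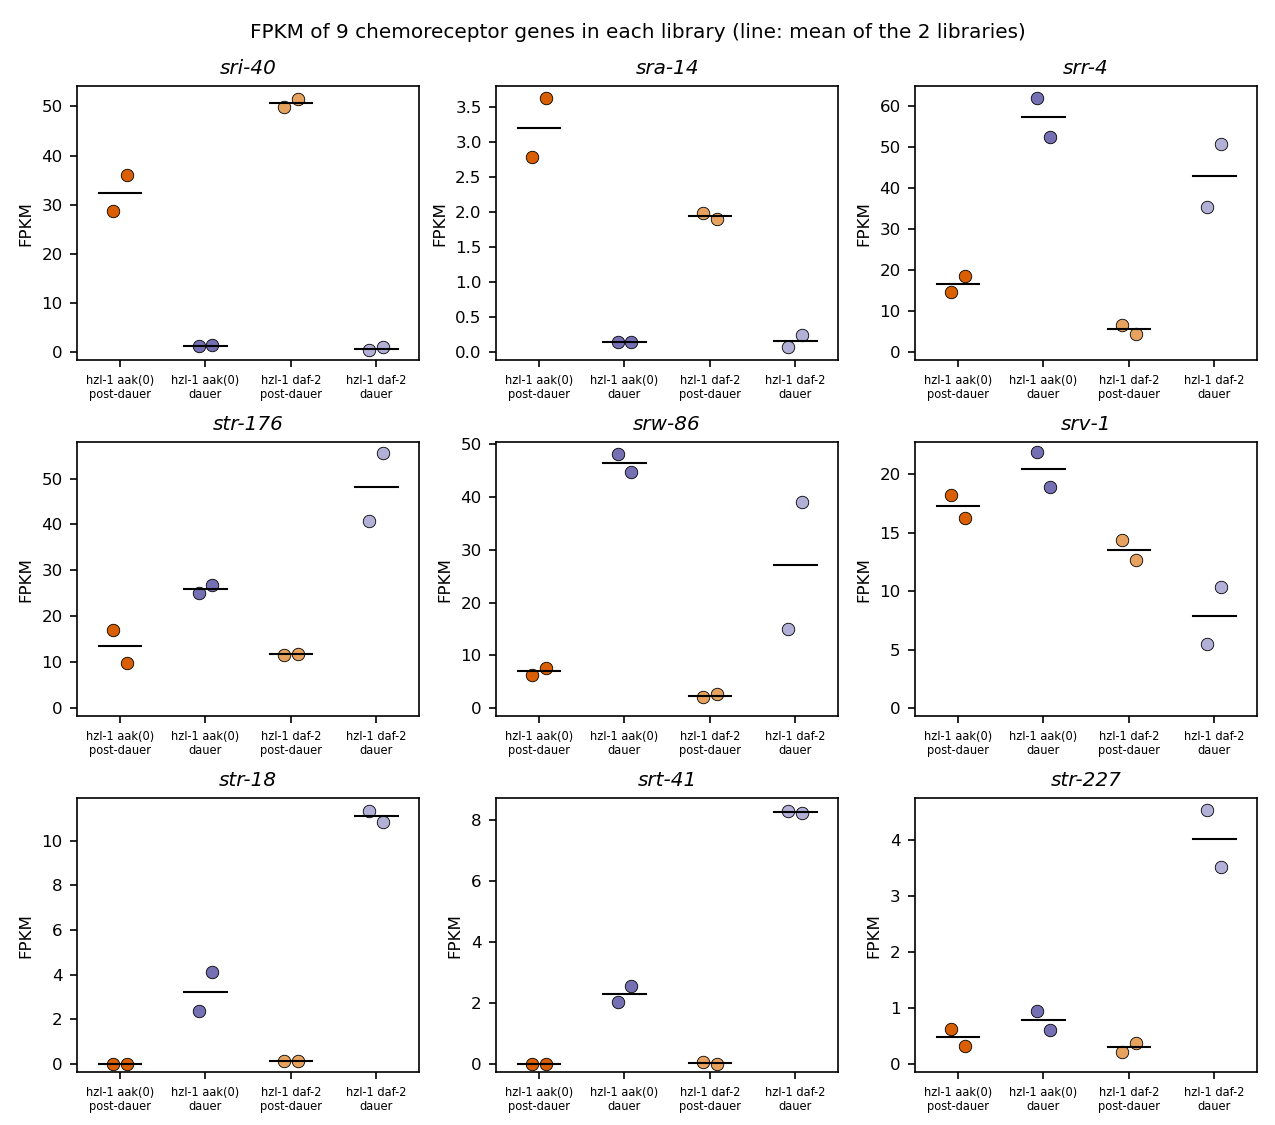
FPKM of 9 of the genes in each library (points) with the mean of the 2 libraries of a group (line), each panel on its own scale. The post-dauer groups are high for sri-40 and sra-14, the dauer groups are high for srr-4, str-176 and srw-86, srv-1 differs little between stages, and str-18, srt-41 and str-227 are highest in hzl-1 daf-2 dauers.

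Several low-level genes were all but undetected in post-dauers. The gene str-18 on chromosome V (15740517 to 15741951) had no read in either hzl-1 aak(0) post-dauer library and 2.38 and 4.11 FPKM in hzl-1 aak(0) dauers. In hzl-1 daf-2 it had 0.16 and 0.13 FPKM in post-dauers and 11.3 and 10.8 in dauers. Post-dauers were lower without overlap, at least 57.7-fold in hzl-1 aak(0) when 3 reads over the post-dauer group are set as the floor, and by 3.40 ± 0.26 SE on the log2(FPKM + 1) scale in hzl-1 daf-2 (limma adjusted p = 7.44e-05). With the same floor, post-dauer levels in hzl-1 aak(0) were at least 61.6-fold lower for srw-82, 55.1-fold for srx-95 and 37.5-fold for srt-41. For srh-245 the floor gave 12.7-fold, but limma did not call its stage change in hzl-1 aak(0). Such floors cover counting error and leave out the spread between libraries. In hzl-1 daf-2, post-dauer levels were at least 41.3-fold lower for srh-245, 39.2-fold for srt-33, 29.4-fold for srt-20 and 21-fold for srt-42. For srt-20 those post-dauer libraries had 0 and 0 recovered reads but 0.08 and 0.13 FPKM, so reads and FPKM disagree on its detection. The hzl-1 daf-2 dauer libraries differed widely for srt-42. The srt-37 values allow only 1.63-fold in hzl-1 aak(0), since that gene had 5 reads in those dauers.

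Further genes with large falls were sre-31, srt-20, sri-70, srg-32, srx-95 and str-143. For sre-31, of the Sra superfamily, FPKM was 0.05 and 0 in hzl-1 aak(0) post-dauers, 4.82 and 5.11 in hzl-1 aak(0) dauers, 1.29 and 0.22 in hzl-1 daf-2 post-dauers, and 7.93 and 9.03 in hzl-1 daf-2 dauers. Its log2 change was -2.54 ± 0.33 SE (limma adjusted p = 0.00109) and -2.50 ± 0.33 SE (limma adjusted p = 0.000612) in hzl-1 aak(0) and hzl-1 daf-2 on the log2(FPKM + 1) scale. On recovered reads, of which hzl-1 aak(0) post-dauers had 1 and 0, edgeR gave -7.61 (adjusted p = 0.000531) and -3.84 (adjusted p = 0.00118). The difference between these stage changes was not called by limma (-0.04, adjusted p = 0.96) or by edgeR (-3.77, adjusted p = 0.12). For srg-32, the only member of a class that holds the pheromone receptors srg-36 and srg-37, FPKM was 0.75 and 0.40, 5.18 and 5.41, 0.18 and 0.15, and 5.38 and 6.83 in the same group order. Stages did not overlap, and post-dauers were 9.21-fold and 37-fold lower. For sri-70, the other sri member beside sri-40, FPKM was 0.12 and 0.37, 3.35 and 2.94, 0 and 0.07, and 7.16 and 5.17 in that order. The 2 sri genes thus went in opposite directions, with log2 changes of -1.74 (limma adjusted p = 0.0016) and -2.78 (limma adjusted p = 0.000128) for sri-70 in hzl-1 aak(0) and hzl-1 daf-2.

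The FPKM of srx-95, of the Srg superfamily, was 0 in both hzl-1 aak(0) post-dauer libraries and 4.22 and 4.08 in hzl-1 aak(0) dauers, and 0.09 and 0.14 in hzl-1 daf-2 post-dauers and 1.74 and 2.51 in hzl-1 daf-2 dauers. It fell by 2.36 ± 0.22 SE (limma adjusted p = 0.000373) and by 1.48 ± 0.22 SE (limma adjusted p = 0.00117) on the log2(FPKM + 1) scale, without overlap in either genotype.

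In srt-20, of the class with the most members, FPKM was 0.15 and 0 in hzl-1 aak(0) post-dauers and 4.38 and 6.23 in hzl-1 aak(0) dauers, and 0.08 and 0.13 in hzl-1 daf-2 post-dauers and 3.44 and 5.09 in hzl-1 daf-2 dauers. Stages were far apart, while the 2 genotypes overlapped at each stage. In the neighbouring pair, str-143 had 0.21 and 0.16 FPKM in hzl-1 aak(0) post-dauers, 4.46 and 4.10 in hzl-1 aak(0) dauers, 0.55 and 0.29 in hzl-1 daf-2 post-dauers, and 1.91 and 4.92 in hzl-1 daf-2 dauers, and was called lower in both genotypes. Its neighbour str-144, 905 nt away, had 3.20 and 1.93, 2.64 and 2.25, 2.19 and 2.88, and 2.00 and 3.11 FPKM in those groups. All 4 groups of str-144 overlapped, with log2 changes of 0.03 and 0.00.

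By class, 8 of the 10 srt members were called lower in hzl-1 aak(0) post-dauers, the exceptions being srt-13 and srt-42, and 9 in hzl-1 daf-2 post-dauers, the exception being srt-13. Of the 9 srh members, 6 were called lower and srh-237 higher in hzl-1 aak(0) post-dauers, and 7 lower and srh-48 higher in hzl-1 daf-2 post-dauers. Of the 8 str members, 5 were called lower in hzl-1 aak(0) and 7 in hzl-1 daf-2, with str-144 called in neither. All 3 srab, both sre and all 4 srw members were called lower in hzl-1 aak(0) post-dauers. The 4 srsx members split evenly in hzl-1 daf-2, with srsx-19 and srsx-20 lower and srsx-25 and srsx-34 higher in post-dauers. Neither srv member was called between stages in either genotype. The genes called lower in both genotypes and not described singly above were sre-4, srab-12, srab-14, sra-33, sra-37, srbc-20, srd-45, srh-36, srh-71, srh-92, srh-146, srh-177, srh-300, srsx-19, srsx-20, srt-33, srt-37, srt-39, srt-45, srt-53, srt-69, srw-17, srx-56, srx-68, str-7 and str-20. Among them, srab-14 and srbc-20 share exons with opposite-strand genes that were also lower in post-dauers of both genotypes. For srab-14 this is spi-1 (490 nt). For srbc-20 it is C45H4.21 (97 nt), at 0 in both hzl-1 aak(0) post-dauer libraries and at 7.52 and 11.7 FPKM in hzl-1 aak(0) dauers. By contrast T13F2.6, which overlaps sre-4, was higher in post-dauers of both genotypes. The part of neighbour reads in these calls was not tested. Some calls of the listed genes were lost under alternatives. In hzl-1 aak(0), srt-33 was called in only 7 of 19 alternatives, and neither edgeR nor DESeq2 called it (adjusted p up to 0.392 over the alternatives). There srh-71 was called in 14 of 19 (up to 0.287, lost with DESeq2 among others) and srt-39 in 15 of 19 (up to 0.235). Both were lost with centred or quantile-normalized libraries and without either hzl-1 aak(0) dauer library. The hzl-1 aak(0) calls of str-20 and srab-14 were lost without hzl-1 aak(0) dauer library 1 (adjusted p = 0.0803 and 0.0761). In hzl-1 daf-2, srab-14 was lost without either post-dauer library (adjusted p up to 0.0862), and str-7 without dauer library 2 or post-dauer library 2 (up to 0.084). With quantile normalization sra-37, srt-53 and srt-69 were not called in hzl-1 aak(0), and edgeR without a read filter did not call srt-37 in either genotype (adjusted p = 0.216 and 0.275).

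With FPKM as deposited, limma called no stage change in either genotype for 9 genes, at adjusted p under 0.05. These were srv-1, sru-40, srx-125, str-144, srr-6, srd-53, srd-65, srv-7 and srt-13. The most abundant of them, srv-1, of the Srg superfamily on chromosome III (6851254 to 6853130), had 18.3 and 16.3 FPKM in hzl-1 aak(0) post-dauers and 21.9 and 18.9 in hzl-1 aak(0) dauers, and 14.4 and 12.7 in hzl-1 daf-2 post-dauers and 5.48 and 10.3 in hzl-1 daf-2 dauers. Its log2 changes were -0.23 ± 0.29 SE (limma adjusted p = 0.538) and 0.76 ± 0.29 SE (limma adjusted p = 0.0528). In hzl-1 daf-2, srv-1 was 1.71-fold higher in post-dauers without overlap. With libraries centred on the median gene limma called that rise (0.66, adjusted p = 0.0391). In sru-40 the libraries of 1 group differed more than the groups did, with 8.57 and 1.66 FPKM in hzl-1 aak(0) post-dauers, 3.33 and 1.28 in hzl-1 aak(0) dauers, 0.25 and 3.21 in hzl-1 daf-2 post-dauers, and 1.32 and 0.88 in hzl-1 daf-2 dauers. For srx-125 the 2 kinds of value pointed apart. Its FPKM was 2.86 and 4.18 in hzl-1 daf-2 post-dauers, against 3.32 and 1.34 in hzl-1 daf-2 dauers (log2 change 0.49, limma adjusted p = 0.352), while its recovered reads, 8 and 13 against 23 and 21, were called lower by edgeR (-1.47, adjusted p = 0.022).

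Called lower in hzl-1 daf-2 post-dauers and not called in hzl-1 aak(0) were srj-14, str-227, srt-42, srh-245, str-169, srd-27 and srd-28, and called lower in hzl-1 aak(0) post-dauers and not in hzl-1 daf-2 were srw-85 and srab-4. Such a split does not show that the stage change differs between genotypes, and that difference was called by limma for 2 genes only, described below. The hzl-1 daf-2 fall of srt-42 rested on dauers with 1.25 and 7.21 FPKM, beside 0 in both post-dauer libraries (limma adjusted p = 0.0171), and it was lost without either of those post-dauer libraries (adjusted p up to 0.0731). That of srj-14 was lost without hzl-1 daf-2 post-dauer library 2 (adjusted p = 0.0535).

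Between genotypes in dauers, fewer of the 63 genes differed, and the count depended on the scaling of the libraries. With FPKM as deposited, limma called 8 genes lower in hzl-1 aak(0) dauers than in hzl-1 daf-2 dauers, where it called 3.6% of all genes lower, and 6 genes higher, where it called 25.5% of all genes higher. The median log2 difference was -0.20 over the 63 genes, beside 0.41 over all genes tested. With each library centred on its median gene, which moved the median of all genes to -0.14, it called 24 genes lower and 0 higher, beside 13.3% and 12.3% of all genes. With quantile normalization it called 39 lower and 1 higher, beside 16.4% and 13.4% of all genes. On recovered reads edgeR called 11 lower and 2 higher, beside 7.99% and 14.8% of all its genes. Dauer libraries of the genotypes also differed in germline RNA. A list of 10 germline and oocyte genes summed to 600 and 584 FPKM in hzl-1 aak(0) dauers and to 80.4 and 66.7 FPKM in hzl-1 daf-2 dauers, and 9 of the 10 were called higher. Of 10 sperm genes 8 could be tested, and 7 were called higher, with sums of 315 and 347 FPKM against 29.5 and 44.03. Their part in the chemoreceptor differences was not tested. The pan-neuronal list had 2 of 19 genes called higher and 0 lower by limma, with a median log2 difference of -0.11.

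**Figure D5:**
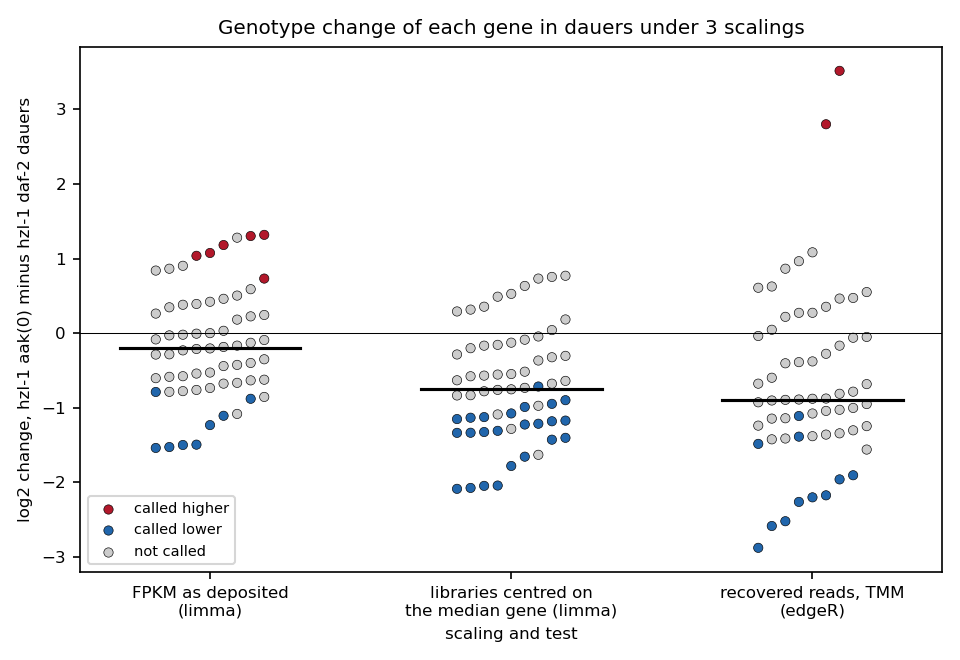
Difference between hzl-1 aak(0) dauers and hzl-1 daf-2 dauers for each of the 63 genes (61 for edgeR) on a log2 scale under 3 scalings, with called genes coloured and the median of the genes as a bar. The medians are -0.20 with FPKM as deposited, -0.75 with libraries centred on the median gene and -0.89 on recovered reads, and the number called higher is 6, 0 and 2.

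The only genotype difference in dauers called under every alternative was that of srt-41, of the Srg superfamily on chromosome V (1799726 to 1803143). Without hzl-1 daf-2 dauers its mean was 0.777 FPKM, so it passed the FPKM threshold only through the group in which it was high. This difference therefore draws on the values that admitted the gene. The same holds for str-227 and srh-245 below and, in the next paragraph, for srx-95, which passed only through hzl-1 aak(0) dauers. The FPKM of srt-41 was 2.02 and 2.56 in hzl-1 aak(0) dauers and 8.30 and 8.24 in hzl-1 daf-2 dauers. The groups did not overlap, and the log2 difference of -1.50 ± 0.21 SE (limma adjusted p = 0.00392) was called under every alternative run. The gene F36H9.10, which overlaps it on the opposite strand, was at 0 in both hzl-1 aak(0) dauer libraries and at 0 and 0.09 FPKM in hzl-1 daf-2 dauers. Lower in hzl-1 aak(0) dauers as well were str-18 (2.38 and 4.11, against 11.3 and 10.8 FPKM, log2 difference -1.54), srh-245 (1.11 and 0.30, against 4.36 and 3.25, -1.53) and str-227 (0.95 and 0.61, against 4.53 and 3.51, -1.49). Each of these 3 was called by limma (adjusted p = 0.00743, 0.0108 and 0.00678) and by edgeR (adjusted p = 0.011, 0.0203 and 0.003). The limma call was lost without hzl-1 aak(0) dauer library 1 for str-18 (adjusted p = 0.0513) and without hzl-1 aak(0) dauer library 2 for srh-245 (0.0556) and str-227 (0.0528). The others called lower were srh-71 (1.24 and 1.54, against 4.64 and 4.57 FPKM), srt-39 (1.16 and 1.48, against 5.04 and 3.12), srh-146 and srt-45. Each of these 4 calls was lost without either hzl-1 aak(0) dauer library, and edgeR did not call srt-45 (adjusted p = 0.0694).

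Of the 6 genes called higher in hzl-1 aak(0) dauers with FPKM as deposited, srv-1 was the most abundant, with 21.9 and 18.9 FPKM against 5.48 and 10.3 in hzl-1 daf-2 dauers. Its log2 difference was 1.32 ± 0.29 SE (limma adjusted p = 0.0176), but with libraries centred on the median gene and by edgeR (0.86, adjusted p = 0.0692) it was not called. Nor was it called without either hzl-1 aak(0) dauer library (adjusted p up to 0.122). The genes srh-48 (1.67 and 1.35 FPKM, against 0 and 0.22) and srd-65 (1.64 and 2.45, against 0.40 and 0.07) were called by limma (adjusted p = 0.0356 and 0.0375) and by edgeR (adjusted p = 0.0169 and 0.012). They were not called with libraries centred on the median gene, with quantile normalization or without any 1 of the dauer libraries. The last 3, srr-6 (2.01 and 2.54, against 0.52 and 0.58), str-7 (3.49 and 4.10, against 1.15 and 1.53) and srx-95 (4.22 and 4.08, against 1.74 and 2.51), were called neither by edgeR nor after centring, and the direction for srr-6 and srx-95 turned under quantile normalization.

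Between genotypes in post-dauers, limma called srr-4 higher (4.22% of all genes were called higher) and 0 of the 63 genes lower (0.443% of all genes). Unadjusted p from limma was under 0.05 for 5 genes, and the share of all genes at that level was not counted. On recovered reads edgeR called 1 higher and 1 lower, beside 3.38% and 0.786% of all its genes. DESeq2 called 1 higher and 5 lower, beside 4.48% and 1.91% of its genes, and edgeR without a read filter 5 and 8, beside 5.02% and 2.56%. The 14.8 and 18.5 FPKM of srr-4 in hzl-1 aak(0) post-dauers were above the 6.75 and 4.36 in hzl-1 daf-2 post-dauers, a 2.99-fold difference in means (log2 1.44 ± 0.27 SE, limma adjusted p = 0.0364, edgeR adjusted p = 0.0399). In dauers of the 2 genotypes srr-4 was not called (log2 0.42 ± 0.27 SE, limma adjusted p = 0.286), and the difference between its stage changes was 1.02 ± 0.39 SE (limma adjusted p = 0.133). The post-dauer call was lost with centred or quantile-normalized libraries and without 5 of the libraries, among them both hzl-1 daf-2 post-dauers and hzl-1 aak(0) post-dauer library 2. The median of the 63 genes was 0.26 to 0.47 FPKM in the 4 post-dauer libraries, and 7 to 15 of them were listed at 0 in each.

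Whether the stage change itself depended on genotype was tested as an interaction. Limma called 2 of the 63 genes (3.17%) with a more positive stage change in hzl-1 aak(0) than in hzl-1 daf-2, near the 3.54% of all genes. It called 0 with a more negative one (7.8% of all genes). The counts by edgeR were 5 and 1, beside 5.23% and 7.79% of all its genes. Unadjusted p from limma was under 0.05 for 15 genes, and the share of all genes at that level was not counted. Both genes called by limma passed the FPKM threshold only through hzl-1 daf-2 dauers, so their interactions draw on the values that admitted them. For str-227, FPKM was 0.63 and 0.33 in hzl-1 aak(0) post-dauers and 0.95 and 0.61 in hzl-1 aak(0) dauers, and 0.22 and 0.38 in hzl-1 daf-2 post-dauers and 4.53 and 3.51 in hzl-1 daf-2 dauers. Only the hzl-1 daf-2 dauers stood apart, so the stage change was -0.27 in hzl-1 aak(0) and -1.94 in hzl-1 daf-2, a difference of 1.68 ± 0.35 SE (limma adjusted p = 0.0297, edgeR 2.74 with adjusted p = 0.0379). For srt-41 the stage changes were -1.71 and -3.16 on the log2(FPKM + 1) scale, a difference of 1.44 ± 0.30 SE (limma adjusted p = 0.0303). Both post-dauer groups were at or near 0 (0 and 0 FPKM in hzl-1 aak(0), 0.08 and 0 in hzl-1 daf-2), so on that scale the value repeats the difference between the dauers. On recovered reads the edgeR estimate had the other sign (-1.13, adjusted p = 0.495).

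Genes of receptor signalling outside the 63 were counted in the same way. Over all genes tested, limma called 27% lower and 25.9% higher in hzl-1 aak(0) post-dauers, and 27.8% and 39.4% in hzl-1 daf-2 post-dauers, with median log2 changes of 0.02 and 0.34. The lists were chosen with earlier results known, and they were not tested against other genes. Outside the sr names, the diacetyl receptor gene odr-10 and the pheromone receptor genes daf-37 and daf-38 were all called lower in post-dauers of both genotypes. The FPKM of odr-10 was 0.85 and 1.3 in hzl-1 aak(0) post-dauers and 7.16 and 6.00 in hzl-1 aak(0) dauers, and 0.34 and 0.63 in hzl-1 daf-2 post-dauers and 20.6 and 18.3 in hzl-1 daf-2 dauers. Of 16 tested G protein subunit genes of sensory neurons, 10 were called lower and 1 higher in hzl-1 aak(0) post-dauers, and 11 and 1 in hzl-1 daf-2 post-dauers, with median log2 changes of -1.14 and -1.07. Among them odr-3, the alpha subunit used in olfactory neurons, had 2.44 and 1.18 FPKM in hzl-1 aak(0) post-dauers against 6.92 and 7.47 in hzl-1 aak(0) dauers, and gpa-3, which acts in dauer formation, had 0.81 and 0.53 against 7.03 and 9.63. Of 9 tested channels and enzymes of sensory transduction 7 were called lower and 0 higher by limma in each genotype, with medians of -1.56 and -1.14. Of 18 tested regulators of sensory neuron fate and receptor expression, 13 were called lower in each genotype and 4 higher in hzl-1 aak(0) and 2 in hzl-1 daf-2, with medians of -0.997 and -1.80. One of these, kin-29, a kinase that keeps chemoreceptor genes on in several neurons, had 7.98 and 6.04 FPKM in hzl-1 aak(0) post-dauers and 17.1 and 18.4 in hzl-1 aak(0) dauers, and 6.15 and 5.77 in hzl-1 daf-2 post-dauers and 20.2 and 25.3 in hzl-1 daf-2 dauers.

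Trafficking genes were mixed. Of 10 tested, 6 were called lower and 2 higher in hzl-1 aak(0) post-dauers and 7 and 3 in hzl-1 daf-2 post-dauers, with medians of -1.01 and -1.45. The gene odr-4, needed to carry receptors to cilia, had 50.7 and 55.5 FPKM in hzl-1 aak(0) post-dauers and 38.8 and 37.2 in hzl-1 aak(0) dauers, and 54.8 and 47.7 in hzl-1 daf-2 post-dauers and 27.4 and 32.9 in hzl-1 daf-2 dauers, and it was called higher in both. The pan-neuronal list had 15 of 19 genes called lower and 0 higher by limma in hzl-1 aak(0) post-dauers and 16 lower and 2 higher in hzl-1 daf-2 post-dauers, with a median log2 change of -2.17 and -2.26. Its part in the chemoreceptor changes was not tested. Of 6 tested genes of amphid sheath and socket glia, which surround the sensory endings, 3 were called lower and 1 higher in hzl-1 aak(0) post-dauers and 2 and 1 in hzl-1 daf-2 post-dauers. All 10 germline and oocyte genes were called higher in post-dauers of both genotypes.

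None of the 63 genes was on a list of 31 serpentine receptors with a published neuron or ligand. All 31 were found in the tables and 3 of them, str-217, srg-36 and srh-234, were listed at 0 in every library. The highest mean was 0.795 FPKM, that of srg-34, the median was 0.0863 FPKM, and 5 of the 31 reached 1 FPKM in at least 1 library. The pheromone receptor gene srg-37 averaged 0.00625 FPKM, srbc-64 0.060 and srbc-66 0.0238, and the marker of ASI neurons str-3 averaged 0.0538 FPKM. Among the 5 was str-44, with 0.35 and 0.13 FPKM in hzl-1 aak(0) post-dauers, 0.15 and 0.14 in hzl-1 aak(0) dauers, 0 and 0.06 in hzl-1 daf-2 post-dauers, and 1.99 and 0.96 in hzl-1 daf-2 dauers. In whole animals at this depth, a level near 0 does not show that the gene is silent.

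Libraries of a group differed in part. In hzl-1 daf-2 dauers library 2 was higher than library 1 for 42 of the 63 genes, with a median log2 difference of 0.26, beside 0.24 over all genes. In hzl-1 aak(0) post-dauers library 1 was higher for 44 genes, and the median difference of library 2 minus library 1 was -0.15, beside -0.23 over all genes. The number of serpentine genes at 1 FPKM or more was 24 and 18 in hzl-1 aak(0) post-dauers, 105 and 112 in hzl-1 aak(0) dauers, 16 and 20 in hzl-1 daf-2 post-dauers, and 124 and 143 in hzl-1 daf-2 dauers. Dauer libraries thus held more such genes than post-dauer libraries in every case, although hzl-1 daf-2 dauer library 1 was the shallowest of the 8.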

How the data were processed

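The authors deposited FPKM for all 8 libraries in 1 table and, for each genotype, a table of count signal divided by size factors with their own log2 fold changes (dauer minus post-dauer) and adjusted p-values from DESeq2, per the file headers. The submitters' processing notes name STAR 2.7.1a, Trimmomatic 0.35, RSEM, DESeq2 1.30.1 and the build WBcel235. Strandedness and the annotation release are not given in the sources used here.

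The 15365 genes averaging 1 FPKM or more were tested with limma 3.58.1 (trend) in R 4.3.3 on log2(FPKM + 1), which understates changes of low genes, with 4 group means over the 8 libraries, 4 residual and 2.69 prior degrees of freedom, Benjamini-Hochberg adjustment and calls under 0.05. Every value of the size-factor-divided tables came out a whole multiple of 1 read at a tolerance of 1e-06 (100% of values in each library), and edgeR 4.0.16 (quasi-likelihood, TMM, filterByExpr) was run on these recovered reads (13.99 to 26.98 M) as an alternative, which tested 17050 genes. Floors of 3 reads cover counting error only. The script was tested on simulated data. With 2 libraries against 2, an exact permutation test of a single gene cannot go below p = 0.333, so none was run.

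The 63 members, the other gene lists and the tests were chosen with earlier results of these data known. Up to 6 called members with the largest rises and 6 with the largest falls per comparison, without overlap of groups, the 12 highest in mean FPKM, and 3 on each side of the threshold were to be named. Genes beyond these (srr-6, str-144, srx-125, srw-82, srh-146, srt-45, srt-42, srt-33 and srt-37, for instance) were added after their values were seen. Coordinates are the files' own. Of the 63 genes, 20 had the same start and end in an Ensembl annotation of the same build, from which strands, exons and overlaps were taken. Receptor, promoter and protein sequences were not used here.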

Additional observations from a re-analysis of the deposited data

Results flagged for a closer look

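The interaction of genotype and stage was called by limma for 2 genes, and each is listed because the test of the difference itself passed. For str-227 the stage change in hzl-1 aak(0) minus that in hzl-1 daf-2 was 1.68 on the log2(FPKM + 1) scale, and 11 of 18 settings called it. For srt-41 it was 1.44, 7 of 18 settings called it, and its sign differed between tests. Both post-dauer groups of srt-41 were at or near 0, and the cause of the change in sign was not tested.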

How the results depend on the processing

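Changes between stages were the more stable. All alternatives together gave 1091 values for the named genes, of which 936 kept direction and call, 149 lost the call and 6 turned. Of the called genes, 31 of 44 in hzl-1 aak(0) and 43 of 51 in hzl-1 daf-2 were called between stages under every alternative in which they could be tested. This held for 1 of 14 genes between genotypes in dauers (srt-41), 0 of 1 in post-dauers and 0 of 2 for the interaction. At a mean FPKM of at least 5 only 5 of the genes could be tested, and 4 (hzl-1 aak(0)) and 5 (hzl-1 daf-2) were called between stages, 1 between genotypes in dauers and 0 for the interaction. For genotype in dauers, where 14 genes were called, the count was 8 with a pseudocount of 0.1, 40 with quantile normalization, 24 with median-centred libraries, 7 with the replicate block, 9 with only the 2 groups compared, and 2 to 20 when single libraries were left out (3 and 2 without hzl-1 aak(0) dauer library 1 or 2, 9 without hzl-1 daf-2 dauer library 1, 7 without either hzl-1 daf-2 post-dauer library). Of all 15365 genes, 3809 were called higher and 407 lower with a pseudocount of 0.1. These numbers were 3128 and 403 with the replicate block, and 3260 and 504 with only the 2 groups compared. Shares for centred and quantile-normalized libraries are given with the dauer results. Under quantile normalization srr-6 (-0.023) and srx-95 (-0.10) turned. For genotype in post-dauers, where 1 gene was called, the count was 0 with quantile normalization, median-centred libraries, the replicate block or only the 2 groups compared, 2 with edgeR (TMM), 3 with edgeR and DESeq2 size factors, 13 with edgeR without a read filter (chosen after seeing the data), 6 with DESeq2, and 0 to 3 when single libraries were left out. For the interaction, where 2 genes were called, the count was 0 with a pseudocount of 0.1, 1 with 0.5, 13 with quantile normalization, 6 with median-centred libraries, 6 with edgeR (TMM), 9 with edgeR and DESeq2 size factors, 12 with edgeR without a read filter, 6 with DESeq2, 0 with the replicate block, and 0 to 12 when single libraries were left out. With quantile normalization all 13 were more positive in hzl-1 aak(0), beside 1297 of 15365 genes more positive and 1113 more negative. Median-centred libraries gave 6 and 0, beside 1007 and 963. Without a read filter edgeR gave 7 and 5, beside 1271 and 2189 of 25119 genes. With DESeq2 size factors it gave 7 and 2, beside 999 and 1300 of 17050. DESeq2 gave 5 and 1, beside 1048 and 1500 of 16840. Counts with single libraries left out have no such share here. The srt-41 interaction turned to -1.13 with edgeR under either scaling or without a read filter, and to -0.70 with DESeq2. The causes were not tested. Libraries share only a number across groups: the correlation of their deviations ran from -0.26 to 0.01, so the block is not a pairing, and with it 42 and 50 genes were called between stages in hzl-1 aak(0) and hzl-1 daf-2. The planned promoter motif search was not run. In post-dauer libraries 7 to 15 of the 63 genes were listed at 0, against 0 to 1 in dauer libraries, and the effect of depth on the calls was not tested.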
